A study of Homo sapiens with 12 samples.

Results

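The genes described here are 55 chromatin remodelers and histone-modifying or DNA-modifying enzymes other than CHD4 and its own complex, with close partner subunits. They were chosen by name from 10 functional roles, and a gene was measured by its probe set with a single gene symbol, taking the one with the highest mean over 12 arrays where there were several. All 55 were measured, among 11963 genes in all, and 31 of them had more than 1 probe set. The arrays were Affymetrix expression arrays of total RNA from 2 cell lines. These were U937, a monocytic line, and MV4-11, a myelomonocytic line that carries a KMT2A (MLL) fusion and a FLT3 mutation. Each line received either an shRNA against CHD4 or a scrambled, non-silencing shRNA, with 3 arrays per group, described by the submitters as biological triplicates. The 4 groups are U937 with scrambled shRNA, U937 with CHD4 shRNA, MV4-11 with scrambled shRNA and MV4-11 with CHD4 shRNA. All of them carried the integrated lentiviral vector pRRL.H1 with GFP and were grown in RPMI with serum. The number of hairpins, any picking of clones and the time after transduction are not given in the labels used here. The target is written CDH4 in the sample labels and CHD4 in the series text, and CHD4 is followed here.

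Chromatin remodelers use ATP to slide, evict or exchange nucleosomes, and fall into the CHD, SWI/SNF, ISWI and INO80 families by their motor subunit. CHD4 is the motor of the NuRD complex, which joins nucleosome remodeling to histone deacetylation. The same promoters and enhancers are also read and written by Polycomb complexes, DNA methyltransferases, deacetylase corepressors, histone H3 lysine 4 methyltransferases and acetyltransferases, many of which are mutated or rearranged in acute myeloid leukaemia. The design allows 1 question to be asked of these genes: whether their transcript levels shifted where CHD4 was depleted.

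CHD4 itself was lower in every array labelled with its shRNA. Its log2 values were 10.31, 10.38 and 10.71 in U937 scrambled arrays and 8.23, 8.13 and 8.45 in U937 CHD4 shRNA arrays, and the change was −2.20 (SE 0.14, n = 3 against 3, limma, Benjamini-Hochberg adjusted p = 8.78e-06). The MV4-11 scrambled arrays stood at 10.65, 10.69 and 10.68 and the CHD4 shRNA arrays at 8.79, 8.85 and 8.39, a change of −2.00 (SE 0.14, limma adjusted p = 1.35e-05). Within each line the groups stayed apart, and all 3 CHD4 probe sets were lower in both. Of 13 myeloid markers, 11 were measured, with LYZ, CEBPA and PTPRC at a mean of 13.58, 11.47 and 10.89 over the 12 arrays and MPO, CD14 and FCGR1A at 5.46, 5.17 and 3.86. The mean of the 11 per array lay between 7.96 and 8.08 in U937 scrambled and 8.21 and 8.23 in U937 CHD4 shRNA arrays, and between 7.73 and 7.84, and 7.97 and 8.19, in MV4-11. Of these 11, ITGAM rose in MV4-11 (1.41 log2) and no other passed in either line. Among 5 T-cell markers, whose mean lay between 5.50 and 5.71, and 5.75 and 5.95, in U937 and between 5.49 and 5.57, and 5.75 and 5.87, in MV4-11, CD2 rose in both lines (1.40 and 1.77 log2), while CD3D, CD3E, CD3G and CD8A did not pass the threshold. The part of ITGAM and CD2, or of the cells they mark, in the results below was not tested. In a bulk sample, a change in the share of cells and a change in RNA per cell cannot be told apart. U937 CHD4 shRNA replicate 3 and MV4-11 CHD4 shRNA replicates 2 and 3 lay away from the other arrays of their groups on principal components, and results are given without them where that matters.

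Few of the 55 genes changed with the CHD4 shRNA. In U937, 3 of 55 passed an adjusted p under 0.05 (5.45%, beside 6.36% of all 11963 genes): HDAC9 and RCOR1 rose (2.67% of all genes did) and SMARCE1 fell (3.69% of all genes did). In MV4-11, 1 of 55 passed (1.82%, beside 9.42% of all genes): SMARCE1, which fell (4.69% of all genes did), and none rose (4.73% of all genes did). With the replicate number as a block within MV4-11, where the numbers paired the arrays, this was still 1 of 55, SMARCE1 (limma adjusted p = 0.0128), beside 1903 of all genes (15.9%) in place of 1127. With a block within each line, 8 of 55 passed in U937, beside 1474 of all genes (12.3%). That block gave 4 of 55 in MV4-11, beside 2351 of all genes (19.7%). Without a block, the share of the 55 was near that of all genes in U937 and below it in MV4-11. SMARCE1 was the only member past the threshold in both lines (1.82%, beside 3.99% of all genes called in both in the same direction), and 52 of 55 passed in neither line.

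**Figure D1:**
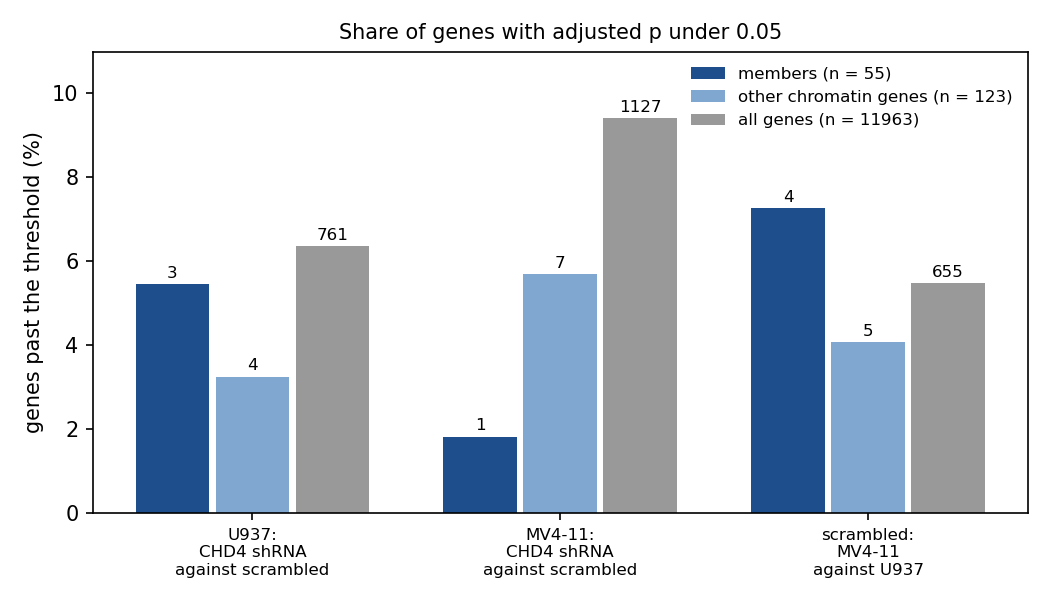
Percent of genes past an adjusted p under 0.05 (vertical axis, from 0) in each comparison, as bars for the 55 members, the 123 other chromatin genes measured and all 11963 genes. The members' bar is 5.45% in U937 and 1.82% in MV4-11, beside 6.36% and 9.42% for all genes.

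The log2 differences between CHD4 shRNA and scrambled arrays were small for most of these genes. The median of the 55 was 0.00 in U937 (range −0.54 to 1.55) and 0.03 in MV4-11 (range −0.44 to 0.62), beside −0.00 and −0.03 over all genes. Without regard to direction, the median difference was 0.17 in U937 and 0.14 in MV4-11, beside 0.12 and 0.14 over all genes. The CHD4 shRNA and scrambled arrays of U937 did not overlap for 14 of 55 (25.5%, beside 26.8% of all genes). Of these, 8 were higher and 6 lower (12.2% and 14.6% of all genes). In MV4-11 they did not overlap for 10 of 55 (18.2%, beside 25.6%), 4 higher and 6 lower (11.5% and 14.1% of all genes). The 95% intervals (limma) limit what could have been missed: for 51 of 55 they lay within 1 log2 unit of 0 in both lines, and for 30 of 55 within 0.5. The members whose interval reached further than 1 log2 unit were CHD7, DNMT3B, HDAC4 and HDAC9. CHD2, CHD7, SMARCA1 and HDAC4 are among the dimmest 25% of genes, where background signal compresses a fold. For CHD2 and SMARCA1 an interval close to 0 therefore limits less what could have been missed.

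**Figure D2:**
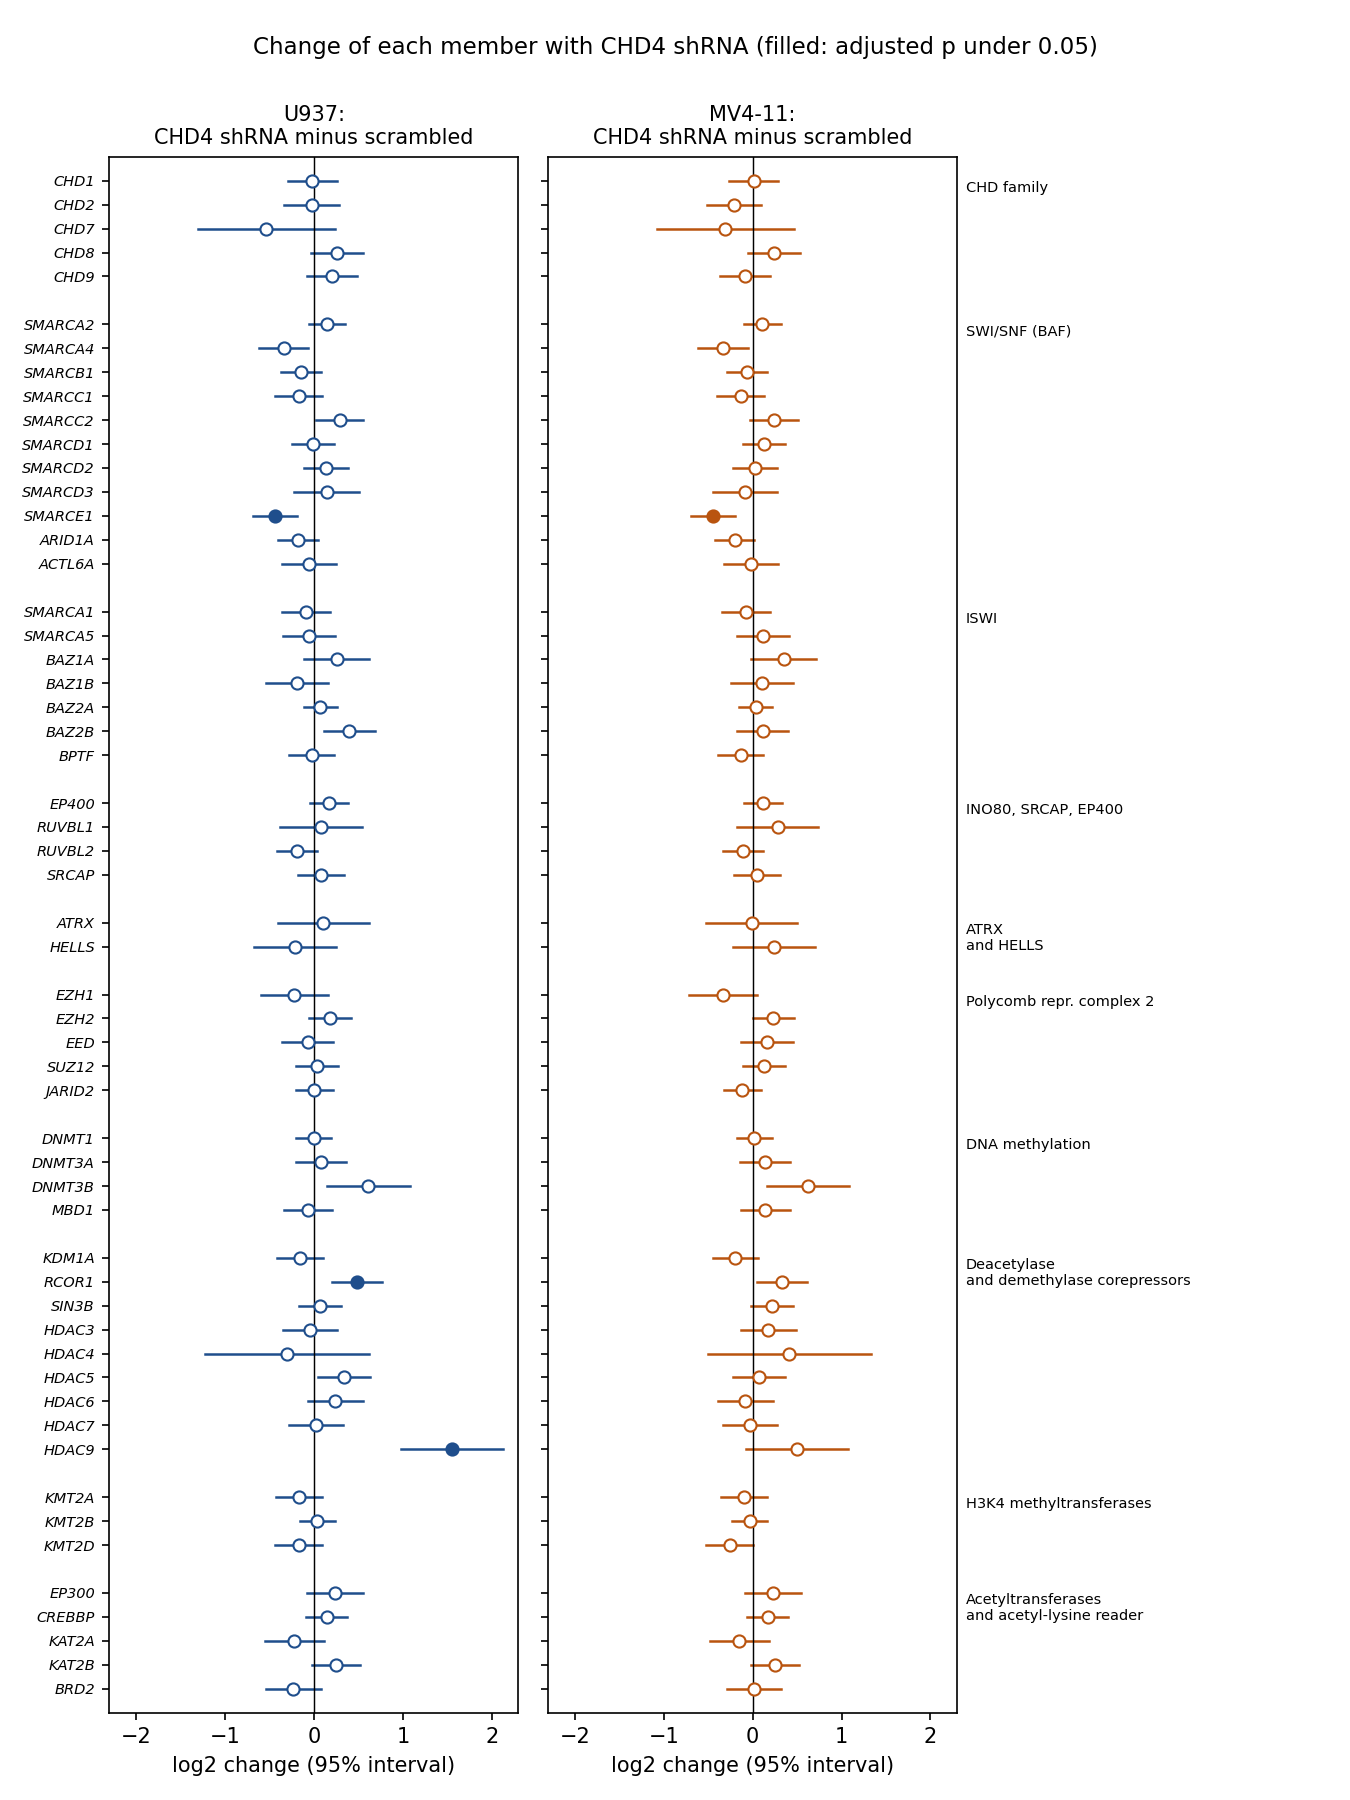
Log2 difference, CHD4 shRNA minus scrambled (horizontal axis, log2 units) for each of the 55 genes, grouped by role, in U937 and MV4-11. Points are the limma estimates and lines their 95% intervals; most lie close to 0, with HDAC9 in U937 at 1.55 and SMARCE1 at −0.44 in both lines.

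The promoters of the 3 genes that changed are printed so that their base composition and common promoter motifs can be read beside the values. Each line is the 250 bases before the annotated transcription start, from RefSeq on GRCh38.p14, 5′ to 3′ on the gene's strand. Capitals mark the GC box (GGGCGG), the CCAAT box (CCAAT) and the TATA box (TATAAA), searched on both strands, so that CCGCCC is a GC box on the other strand.
SMARCE1: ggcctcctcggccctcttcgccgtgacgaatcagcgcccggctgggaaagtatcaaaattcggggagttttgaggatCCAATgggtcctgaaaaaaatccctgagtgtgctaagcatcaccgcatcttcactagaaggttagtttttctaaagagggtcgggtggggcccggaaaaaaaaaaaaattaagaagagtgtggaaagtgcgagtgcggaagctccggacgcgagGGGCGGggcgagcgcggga
RCOR1: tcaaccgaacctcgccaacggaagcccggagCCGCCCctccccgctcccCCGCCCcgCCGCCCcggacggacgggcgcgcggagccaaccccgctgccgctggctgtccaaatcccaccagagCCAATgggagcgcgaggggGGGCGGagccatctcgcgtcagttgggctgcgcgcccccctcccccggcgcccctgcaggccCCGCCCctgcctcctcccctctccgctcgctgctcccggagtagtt
HDAC9: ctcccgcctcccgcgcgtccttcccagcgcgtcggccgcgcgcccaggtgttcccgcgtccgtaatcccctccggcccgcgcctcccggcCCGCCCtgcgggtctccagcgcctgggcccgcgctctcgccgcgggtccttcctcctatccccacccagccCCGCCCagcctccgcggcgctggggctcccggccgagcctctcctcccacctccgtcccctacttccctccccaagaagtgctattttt
The SMARCE1 window is chr17:40647819-40648068 on the minus strand, and holds 1 GC box and 1 CCAAT with 54.4% GC and 19 CpG. The RCOR1 window, chr14:102592399-102592648 on the plus strand, is richer in GC (76.4%, 30 CpG) and holds 5 GC boxes and 1 CCAAT. That of HDAC9, chr7:18086575-18086824 on the plus strand, holds 2 GC boxes and no CCAAT with 75.2% GC and 32 CpG, and belongs to the most upstream of 5 listed starts. None of the 3 windows holds TATAAA. Of the 55 genes, 47 were matched to a promoter. Each of these counts once, at its most upstream listed start, while the 35116 promoter windows beside them hold every listed start. The shares are therefore not on the same unit. A GC box was in 68.1% of the 47, beside 42.6% of the 35116 windows of the same length. CCAAT was in 31.9% beside 32.0%, and TATAAA in 4.3% beside 10.7%. All 3 printed windows hold a GC box, as most of the 47 do.

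The SWI/SNF or BAF complexes, which evict nucleosomes at enhancers and promoters, held the one gene that fell in both lines. SMARCE1 (BAF57), a DNA-binding subunit of BAF, was at 10.61, 10.39 and 10.71 in U937 scrambled arrays and at 10.19, 10.11 and 10.09 in U937 CHD4 shRNA arrays. In MV4-11 it was at 10.60, 10.60 and 10.73 with scrambled and at 10.21, 10.00 and 10.39 with CHD4 shRNA. Every CHD4 shRNA array of a line lay at or below 10.39, and the groups did not overlap within either line, although the lowest U937 scrambled array was 10.39 as well. The mean went from 10.57 ± 0.16 to 10.13 ± 0.05 (SD, n = 3) in U937, a change of −0.44 (SE 0.11, 1.36-fold lower, limma adjusted p = 0.0379). The MV4-11 mean was 10.64 ± 0.08 with scrambled and 10.20 ± 0.20 with CHD4 shRNA (SD, n = 3), a change of −0.44 (SE 0.11, 1.36-fold lower, limma adjusted p = 0.0288). The changes differed by −0.00 between the lines (95% interval −0.35 to 0.34).

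Both SMARCE1 calls lay close to the threshold and rested on 1 of its 2 probe sets. The other probe set had a log2 difference of −0.17 in U937 (limma adjusted p = 0.41) and 0.00 in MV4-11 (limma adjusted p = 0.99). Averaging both probe sets gave a limma adjusted p of 0.0536 for U937 and 0.128 for MV4-11. The U937 call was also lost with each array centred on its median (0.0589), and the MV4-11 call with the MV4-11 arrays fitted alone (0.0852). The U937 call was lost without U937 scrambled replicate 1 (limma adjusted p = 0.126) or 3 (0.140), and without U937 CHD4 shRNA replicate 1 (0.0603), 2 (0.123) or 3 (0.117). It was also lost without MV4-11 scrambled replicate 1 (0.0510) or 2 (0.0538) or MV4-11 CHD4 shRNA replicate 1 (0.0583), which enter through the shared spread. The MV4-11 call was lost without MV4-11 scrambled replicate 1 (0.0579), 2 (0.0636) or 3 (0.101), or MV4-11 CHD4 shRNA replicate 1 (0.0925) or 2 (0.111).

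The motor subunit SMARCA4 (BRG1) was lower in every CHD4 shRNA array than in any scrambled array of its line, without passing the threshold. Its log2 values were 10.55, 10.45 and 10.70 against 10.30, 10.04 and 10.34 in U937, and 10.77, 10.95 and 10.67 against 10.49, 10.66 and 10.24 in MV4-11. The log2 differences were −0.34 (SE 0.13, limma adjusted p = 0.154) and −0.33 (SE 0.13, limma adjusted p = 0.125). With a replicate block within each line, SMARCA4 passed in both (limma adjusted p = 0.0232 in U937 and 0.0182 in MV4-11). All 8 of its probe sets were below 0 in MV4-11 (−0.38 to −0.00) and 6 of 8 in U937 (−0.42 to 0.17), and none of them passed without a block. The alternative motor SMARCA2 (BRM) had log2 differences of 0.15 in U937 and 0.11 in MV4-11. Among the core subunits, SMARCC2 (BAF170) had differences of 0.29 and 0.24, with groups apart in U937 and overlapping in MV4-11. It passed in U937 only with a replicate block within each line (limma adjusted p = 0.0384). The differences were −0.17 and −0.14 for its paralog SMARCC1 (BAF155), and −0.15 and −0.06 for SMARCB1. For ARID1A, a subunit that defines one class of BAF complex, they were −0.18 and −0.20. The remaining subunits SMARCD1, SMARCD2, SMARCD3 and ACTL6A lay between −0.09 and 0.14 in both lines, and the median of all 11 was −0.06 in each line.

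**Figure D3:**
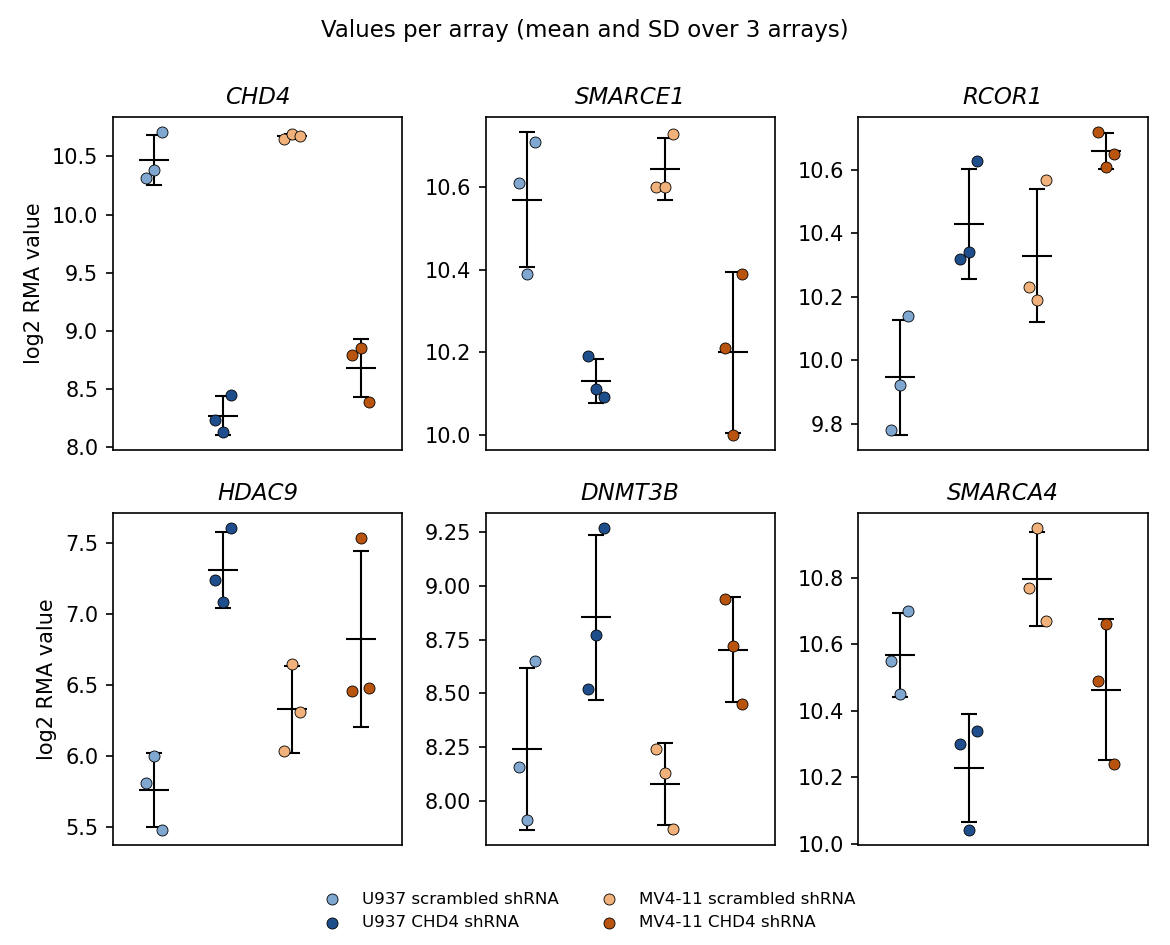
Log2 expression (vertical axis) of CHD4, SMARCE1, RCOR1, HDAC9, DNMT3B and SMARCA4 on each array, as 1 point per array with the group mean and SD. CHD4 fell by about 2 log2 units in both lines; the change of SMARCE1 (−0.44) is small beside it but leaves the groups of each line apart, and HDAC9 in U937 is well apart, at 7.09 to 7.61 against 5.48 to 6.00.

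In the other families of ATP-dependent remodelers no gene passed the threshold in either line, although CHD7 and BAZ2B did so in U937 under some alternatives given below. Of the 5 CHD proteins, CHD8, which restrains beta-catenin and p53 targets, had the lowest p. It was at 7.58, 7.76 and 7.95 with scrambled and 7.93, 7.91 and 8.23 with CHD4 shRNA in U937, and at 7.85, 8.14 and 7.73 against 8.19, 8.25 and 8.01 in MV4-11. The groups overlapped in both lines, with log2 differences of 0.26 (limma adjusted p = 0.336, 95% interval −0.03 to 0.55) and 0.24 (limma adjusted p = 0.301). CHD1 (−0.02 and 0.01), CHD2 (−0.03 and −0.21) and CHD9 (0.20 and −0.09) had smaller differences, in U937 and MV4-11 in that order. CHD7, a remodeler of enhancers in development, was at 4.76, 4.65 and 4.23 with scrambled and 4.02, 4.02 and 3.99 with CHD4 shRNA in U937. These arrays did not overlap, and the difference was −0.54 with a wide interval (−1.31 to 0.24, limma adjusted p = 0.477). The spread in that fit is shared with the MV4-11 arrays, whose SDs were 0.59 and 0.85 against 0.28 and 0.02 in U937. CHD7 was called lower in U937 with the replicate block within MV4-11 (limma adjusted p = 0.0321), with a block within each line (0.0264) and with the U937 arrays fitted alone (0.0486), while its second probe set had a difference of 0.07. The other 4 relatives of CHD4 passed in neither direction, and the intervals of CHD1, CHD2, CHD8 and CHD9 lay within 1 log2 unit of 0.

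ISWI motors space nucleosomes and work with the BAZ and BPTF subunits. The motors SMARCA5 (SNF2H) and SMARCA1 (SNF2L) had log2 differences of −0.05 and −0.09 in U937 and 0.11 and −0.08 in MV4-11. BAZ2B, a bromodomain partner, was at 8.49, 8.42 and 8.21 in U937 scrambled arrays and 8.85, 8.90 and 8.56 in U937 CHD4 shRNA arrays. All of the latter were higher than the former, and the difference was 0.40 (SE 0.13, limma adjusted p = 0.106, or 0.0389 with a replicate block within each line). In MV4-11 it was 0.11 with overlapping groups. The other subunits, in U937 and MV4-11 in that order, had differences of 0.26 and 0.35 (BAZ1A or ACF1), −0.19 and 0.10 (BAZ1B), 0.07 and 0.03 (BAZ2A) and −0.02 and −0.13 (BPTF), and none passed.

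The INO80, SRCAP and EP400 complexes exchange the histone variant H2A.Z, and share the ATPases RUVBL1 and RUVBL2. RUVBL2 was at 11.81, 11.77 and 11.92 with scrambled and 11.72, 11.63 and 11.58 with CHD4 shRNA in U937, which did not overlap. It stood at 11.89, 11.93 and 11.57 against 11.75, 11.65 and 11.66 in MV4-11, which did. The log2 differences were −0.19 (limma adjusted p = 0.360) and −0.11. They were 0.08 and 0.28 for RUVBL1, and 0.17 and 0.11 for the motor EP400 and 0.08 and 0.05 for the motor SRCAP. HELLS (LSH), a remodeler needed for DNA methylation of repeats, was at 7.87, 7.66 and 7.40 against 8.09, 8.20 and 7.36 in MV4-11, and at a mean of 8.01 ± 0.27 against 7.80 ± 0.18 in U937 (SD, n = 3). The groups overlapped in both lines, with log2 differences of 0.24 (limma adjusted p = 0.552) and −0.21. For ATRX, which deposits histone H3.3 with DAXX, they were −0.01 and 0.11 in the same order.

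Polycomb repressive complex 2 methylates histone H3 at lysine 27 through EZH2 or EZH1. EZH2 was at 9.73, 9.61 and 9.73 in MV4-11 scrambled arrays and 9.94, 9.89 and 9.94 in MV4-11 CHD4 shRNA arrays. The groups did not overlap, but the difference of 0.23 (SE 0.11) did not pass over all genes (limma adjusted p = 0.201), and in U937 it was 0.18 with overlapping groups. For EZH1, the paralog that prevails in resting cells, the differences were −0.22 in U937 and −0.33 in MV4-11 (95% interval −0.71 to 0.05). All 3 EZH1 probe sets were below 0 in U937 (−0.34 to −0.17) and in MV4-11 (−0.53 to −0.33), and none passed. The differences of the core partners EED (−0.07 and 0.16) and SUZ12 (0.03 and 0.12) and of the recruiting subunit JARID2 (0.00 and −0.12) were smaller.

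Among the DNA methylation genes, the de novo methyltransferase DNMT3B had the largest difference and did not pass in either line. In U937 its values were 8.16, 7.91 and 8.65 with scrambled and 8.52, 8.77 and 9.27 with CHD4 shRNA, which overlapped. In MV4-11 they were 8.24, 8.13 and 7.87 against 8.94, 8.72 and 8.45, and every CHD4 shRNA array was the higher. The differences were 0.61 (SE 0.21, limma adjusted p = 0.121) and 0.62 (SE 0.21, limma adjusted p = 0.0876). The MV4-11 difference passed without MV4-11 CHD4 shRNA replicate 3 (limma adjusted p = 0.0428), and gave 0.0571 with the replicate block within MV4-11. With a block within each line, DNMT3B passed in both (limma adjusted p = 0.00739 in U937 and 0.00457 in MV4-11). DNMT3A, the other de novo enzyme and a gene often mutated in this leukaemia, had differences of 0.08 and 0.14. Those of the maintenance enzyme DNMT1 were −0.00 and 0.02, and those of the methyl-CpG reader MBD1 −0.07 and 0.14.

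Deacetylase and demethylase corepressors held both genes that rose, and both did so in U937. HDAC9, a class IIa deacetylase that is recruited by MEF2 factors, was at 5.81, 6.00 and 5.48 in U937 scrambled arrays and 7.24, 7.09 and 7.61 in U937 CHD4 shRNA arrays. All CHD4 shRNA arrays were more than 1 log2 unit above every scrambled array. The mean went from 5.76 ± 0.26 to 7.31 ± 0.27 (SD, n = 3), a change of 1.55 (SE 0.26, 2.93-fold higher, limma adjusted p = 0.00518, 95% interval 0.98 to 2.12). This call passed in all 20 alternatives, with adjusted p between 0.000521 and 0.0283, and without U937 CHD4 shRNA replicate 3 it was the single member called in U937. In MV4-11 HDAC9 was at 6.04, 6.65 and 6.31 with scrambled and 6.46, 7.54 and 6.48 with CHD4 shRNA. There the groups overlapped, and the difference was 0.49 (SE 0.26, limma adjusted p = 0.281, 95% interval −0.08 to 1.07). HDAC9 had 1 probe set, so the change could not be compared with a second one.

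RCOR1 (CoREST), the scaffold that joins the demethylase KDM1A (LSD1) to class I deacetylases, was at 9.78, 9.92 and 10.14 in U937 scrambled arrays and 10.32, 10.34 and 10.63 in U937 CHD4 shRNA arrays. The groups did not overlap, and the mean went from 9.95 ± 0.18 to 10.43 ± 0.17 (SD, n = 3), a change of 0.48 (SE 0.13, 1.40-fold higher, limma adjusted p = 0.0444). MV4-11 arrays did not overlap either (10.23, 10.19 and 10.57 against 10.72, 10.61 and 10.65), with a difference of 0.33 (SE 0.13, limma adjusted p = 0.132, 95% interval 0.05 to 0.61). With a replicate block within each line, RCOR1 passed in MV4-11 as well (limma adjusted p = 0.0396). It did not pass there with the block within MV4-11 only. RCOR1 had 1 probe set, so its change could not be compared with a second one. The U937 call was lost without U937 scrambled replicate 1 (limma adjusted p = 0.178) or 2 (0.124), without U937 CHD4 shRNA replicate 1 (0.0550), 2 (0.0917) or 3 (0.167), and without MV4-11 scrambled replicate 1 (0.0545) or 2 (0.0524) or MV4-11 CHD4 shRNA replicate 1 (0.0648). It was also lost with the U937 arrays fitted alone (0.0553) and with all probe sets tested (0.0512). Its partner KDM1A, which removes methyl groups from lysine 4, had differences of −0.16 in U937 and −0.19 in MV4-11 and did not pass.

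The other deacetylases did not pass in either line. HDAC5 and HDAC4, class IIa enzymes like HDAC9, had log2 differences of 0.34 (limma adjusted p = 0.173) and −0.31 in U937 and 0.07 and 0.41 in MV4-11. Those of HDAC7, also of class IIa, were 0.02 and −0.03. They were −0.05 and 0.18 for HDAC3, the enzyme of the NCoR and SMRT complexes, 0.24 and −0.08 for the tubulin deacetylase HDAC6, and 0.07 and 0.22 for the SIN3 scaffold SIN3B. Of the 4 class IIa genes HDAC9 alone passed the threshold, and the difference between these genes was not tested.

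Histone H3 lysine 4 methyltransferases and acetyltransferases had no gene past the threshold. KMT2D (MLL4), which marks enhancers, was at 7.64, 7.47 and 7.62 with scrambled and 7.41, 7.15 and 7.39 with CHD4 shRNA in MV4-11, and at 7.76, 7.71 and 7.35 against 7.50, 7.32 and 7.48 in U937. The groups were apart in MV4-11 and overlapped in U937, with differences of −0.26 (limma adjusted p = 0.207) and −0.17. The other 2 of its 3 probe sets were slightly above 0 in both lines (up to 0.07 in U937 and 0.06 in MV4-11). KMT2A, the gene fused in MV4-11, had differences of −0.10 there and −0.17 in U937, and whether its probe set reads the fusion transcript was not tested. Those of its paralog KMT2B were −0.03 and 0.04 in the same order. KAT2B (PCAF) was at 7.63, 7.70 and 7.75 against 7.99, 7.88 and 7.96 in U937 and 7.82, 7.55 and 8.04 against 8.18, 7.85 and 8.12 in MV4-11. Only the U937 arrays were apart, and the difference was 0.25 in both lines (limma adjusted p = 0.307 and 0.248). Its paralog KAT2A (GCN5) had differences of −0.22 in U937 and −0.15 in MV4-11. The coactivators EP300 (0.23 and 0.23) and CREBBP (0.14 and 0.17) and the bromodomain reader BRD2 (−0.23 and 0.02) did not pass.

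None of the 55 genes passed the test of whether the change differed between the lines (limma, 0 of 55 and 0% of all 11963 genes). At an unadjusted p under 0.05 there was 1 of 55, beside 546 of all genes. That gene was HDAC9, whose change in MV4-11 minus that in U937 was −1.06 log2 units (SE 0.37, 95% interval −1.87 to −0.25, limma adjusted p = 0.937). Without a block, HDAC9 and RCOR1 were called in U937 alone, which is thus not shown to be particular to that line. For RCOR1 the change in MV4-11 minus that in U937 was −0.15 (95% interval −0.55 to 0.24).

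The lines themselves differed more at a few of these genes. With scrambled shRNA, 4 of 55 were higher in MV4-11 than in U937 (7.27%, beside 5.48% of all genes called in either direction and 2.97% called higher), and none was called lower (2.51% of all genes were). Arrays of the lines did not overlap for 14 of 55 (25.5%, beside 26.3% of all genes), 11 higher and 3 lower in MV4-11 (11.9% and 14.4% of all genes), and the median difference was 0.09, beside −0.03 over all genes. This comparison uses the same scrambled arrays as the changes above, and line cannot be told apart from anything else that differed between the cultures.

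HDAC4, the class IIa deacetylase, had the largest difference. It was at 4.37, 4.32 and 4.13 in U937 and 5.27, 7.38 and 6.50 in MV4-11 scrambled arrays, and in CHD4 shRNA arrays it was at 3.82, 3.99 and 4.09 in U937 and 6.39, 7.62 and 6.38 in MV4-11. Every MV4-11 array was above every U937 array, and the MV4-11 arrays spread widely. The scrambled difference was 2.11 (SE 0.43, 4.32-fold higher, limma adjusted p = 0.0118), and it missed the threshold without MV4-11 scrambled replicate 3 (limma adjusted p = 0.0523). HDAC4 and CHD7 are among the dimmest 25% of genes by mean, where background signal compresses a fold.

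BAZ2B, the ISWI partner, was at 8.49, 8.42 and 8.21 in U937 and 9.22, 9.57 and 9.49 in MV4-11 scrambled arrays. The CHD4 shRNA arrays kept this order, at 8.85, 8.90 and 8.56 against 9.52, 9.38 and 9.72. The scrambled difference was 1.05 (SE 0.13, 2.08-fold higher, limma adjusted p = 0.000588), and it passed in all 18 alternatives. EZH2 was at 9.30, 9.01 and 9.40 against 9.73, 9.61 and 9.73, without overlap, a difference of 0.45 (SE 0.11, 1.37-fold higher, limma adjusted p = 0.0267). The EZH2 call was lost without U937 scrambled replicate 1 (limma adjusted p = 0.0689) or 2 (0.109), or without MV4-11 scrambled replicate 1 (0.0641), 2 (0.0577) or 3 (0.101).

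CHD7 was at 4.76, 4.65 and 4.23 in U937 and 5.66, 6.55 and 5.43 in MV4-11 scrambled arrays, and at 4.02, 4.02 and 3.99 against 5.20, 6.55 and 4.97 with CHD4 shRNA. The scrambled difference was 1.33 (SE 0.36, 2.52-fold higher, limma adjusted p = 0.0483), the weakest of the 4 calls. Its second probe set differed by 0.04 and was not called. The call was lost without each U937 scrambled array (limma adjusted p = 0.103, 0.117 and 0.132 for replicates 1, 2 and 3), each U937 CHD4 shRNA array (0.0671, 0.0705 and 0.0581), each MV4-11 scrambled array (0.0606, 0.185 and 0.0598) and MV4-11 CHD4 shRNA replicate 1 (0.0570). In MV4-11, replicate 2 had the highest CHD7, HDAC4 and HDAC9 value of its group with either shRNA. EP300 has a second probe set that was higher in MV4-11 (0.57, limma adjusted p = 0.0308), where the chosen one differed by 0.23.

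**Figure D4:**
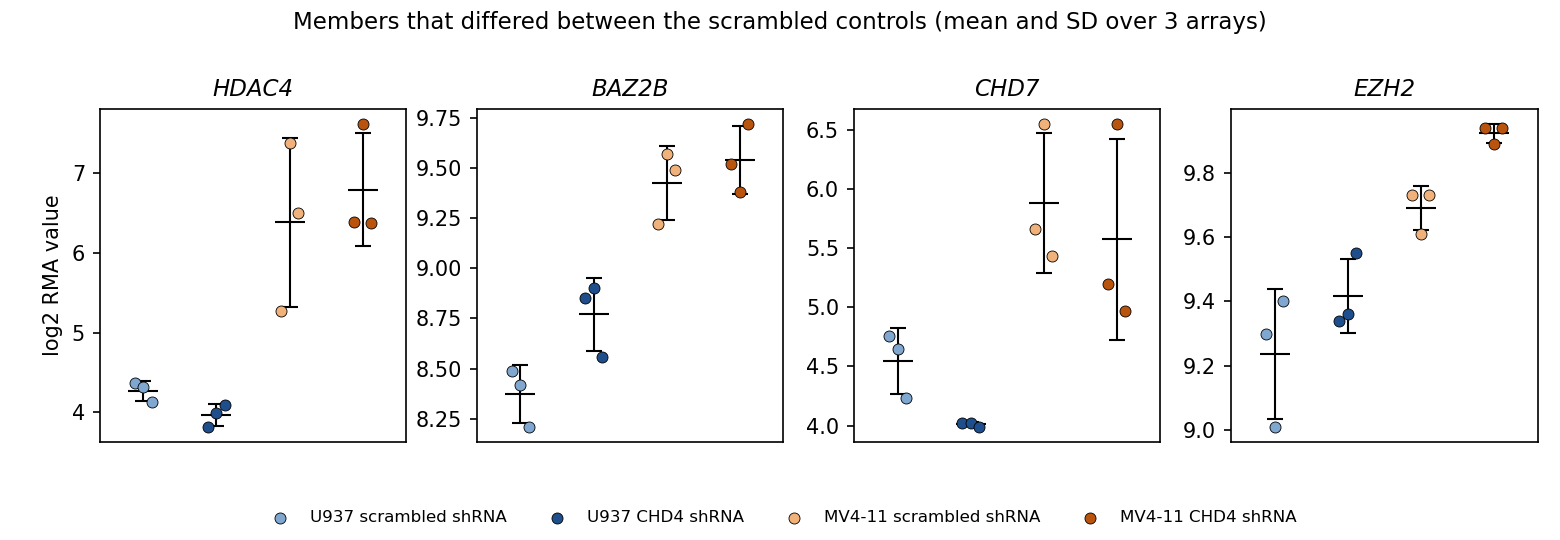
Log2 expression (vertical axis) of HDAC4, BAZ2B, CHD7 and EZH2 on each array, by line and shRNA, as 1 point per array with the group mean and SD. MV4-11 arrays lie above U937 arrays for each gene with either shRNA, and the MV4-11 points of HDAC4 (5.27 to 7.62) and CHD7 (4.97 to 6.55) spread most.

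Other chromatin genes outside the 55 were counted for comparison, and 123 of 157 listed were measured. In U937, 4 of 123 rose and none fell (3.25% called, beside 6.36% of all genes), and in MV4-11 5 rose and 2 fell (5.69%, beside 9.42%). The 12 measured genes of the list of Polycomb complex 1 subunits and Polycomb-like proteins held the 4 that rose in U937 and 3 of the 5 that rose in MV4-11, beside 2.67% and 4.73% of all genes called higher. The list was not tested as a group, and it was written with earlier results of these data known. PCGF2 (MEL18), a RING partner of complex 1, changed by 0.71 in U937 and 0.51 in MV4-11 (limma adjusted p = 0.0110 and 0.0385). PHC1, which joins complexes into polymers, changed by 0.50 and 0.44 (limma adjusted p = 0.00521 and 0.00742). MTF2, a Polycomb-like protein that recruits complex 2 to CpG islands, changed by 0.47 and 0.43 (limma adjusted p = 0.0169 and 0.0206). PHF1, another Polycomb-like protein, changed by 0.48 in U937 (limma adjusted p = 0.0435), while its difference of 0.17 in MV4-11 did not pass. The median over the 12 was 0.22 in U937 and 0.16 in MV4-11, beside −0.00 and −0.03 over all genes. Of the 123, only PCGF2, PHC1 and MTF2 rose in both lines, beside 3.99% of all genes called in both in the same direction. Among the 12, 10 lay above 0 in U937 and 9 in MV4-11. CBX7 had the largest fall, −0.44 in MV4-11 (7.81 to 7.37), and did not pass. In MV4-11 the lysine methyltransferase SMYD2 (0.61, limma adjusted p = 0.00872) and the BAF subunit BCL7B (0.66, limma adjusted p = 0.0202) also rose. The annealing helicase SMARCAL1 (−0.64, limma adjusted p = 0.0154) and the acetyltransferase KAT8 (−0.63, limma adjusted p = 0.0381) fell, and the arrays of KAT8 overlapped between groups. The KAT8 call rests on the brighter of its 2 probe sets. Its change was weakest, at −0.32, with both probe sets averaged.

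PHC1 kept its call in both lines under each of the 20 alternatives read for single genes. These leave out the separate test of all probe sets. Its U937 arrays were at 7.23, 7.23 and 7.34 with scrambled and 7.66, 7.80 and 7.83 with CHD4 shRNA, and its MV4-11 arrays at 7.10, 7.03 and 7.12 against 7.49, 7.48 and 7.61. No array of one group reached the other in either line, with limma adjusted p over the 20 alternatives of up to 0.0311 in U937 and 0.0382 in MV4-11. In U937, PCGF2 was lost without CHD4 shRNA replicate 2 (limma adjusted p = 0.0570), and MTF2 without scrambled replicate 1 (0.0636) or 2 (0.0734) or CHD4 shRNA replicate 2 (0.0563) or 3 (0.0708). PHF1 was lost without any one U937 array (0.0778 to 0.160), MV4-11 scrambled replicate 2 (0.0576) or MV4-11 CHD4 shRNA replicate 1 (0.0610). In MV4-11, PCGF2 was lost without any one MV4-11 array (limma adjusted p = 0.0576 to 0.139) or U937 scrambled replicate 1 (0.0582). MTF2 was lost there without CHD4 shRNA replicate 1 (0.0928) or scrambled replicate 2 (0.0604) or 3 (0.0823), and SMYD2 without CHD4 shRNA replicate 1 (0.0512). SMARCAL1 and BCL7B were lost without CHD4 shRNA replicate 1 (0.0701 and 0.0875) or 2 (0.0573 and 0.0736) or scrambled replicate 3 (0.0663 and 0.0830). KAT8 was lost without MV4-11 CHD4 shRNA replicate 1 (0.163) or 2 (0.131), MV4-11 scrambled replicate 2 (0.101) or 3 (0.133), any one U937 scrambled array (0.0526 to 0.0575) or U937 CHD4 shRNA replicate 2 (0.0517). Counting settings not listed here, 10 of 20 alternatives lost KAT8 in MV4-11 and 8 lost PCGF2. MTF2, SMARCAL1 and BCL7B were each lost there in 4, and SMYD2 in 2 (limma adjusted p up to 0.0645).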

How the data were processed

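Transcript levels in 12 samples were taken from 1 table of log2 values, which the authors deposited after RMA (background correction, quantile normalization and probe-set summary), per the submitters' processing notes. Its version and joint processing of the arrays are not stated in the labels used here. Values ran on a log2 scale (2.54 to 15.05, array medians 6.96 to 7.01). Quantile normalization would hide a change shared by most genes. The number of arrays limits the precision.

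Control probe sets (62 of 22277) were left out. A single gene symbol was held by 19064 probe sets, several by 1043, and 2108 were not named; 19052 had an Entrez identifier in the RefSeq gene table. The brightest probe set represented a gene, giving 11963 genes. One model of the 4 groups was fitted with limma 3.58.1 in R 4.3.3 (lmFit and eBayes, 8 residual and 4.66 prior degrees of freedom), with Benjamini-Hochberg adjustment over all genes and a threshold of 0.05. The fit was run on simulated data with independent arrays, which does not bear on arrays paired by replicate number. The p-values measure the spread between these arrays. An exact permutation test of 3 arrays against 3 cannot give a two-sided p below 0.1, so none was used.

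Members, lists and naming rule were chosen with earlier results of these data known. Arrays are described in full for members past the threshold in a line and for each role's lowest-p member where none passed. They are also given for up to 5 differences per direction between scrambled controls. SMARCA4 was added after its values were seen. Other chromatin genes past the threshold are named with their changes, with array values for PHC1 only. One Y-linked gene was left out of the other list. Other marker lists (B cell, erythroid, fibroblast, epithelial) were also read: CD79B rose in both lines (0.60 and 1.34 log2), PAX5 and KLF1 fell in U937 (by 0.90 and 1.03), and their part in the results was not tested.

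Replicate numbers in the titles were checked for pairing. In MV4-11, deviations from the group means of same-numbered arrays correlated at 0.46, 0.48 and 0.49, so the block is given there. In U937 the values were 0.00, 0.35 and 0.34, while those of unlike numbers ran from −0.41 to 0.17. Replicates 2 and 3 thus went with their numbers and replicate 1 did not. The U937 block is given as an alternative. Alternatives were a filter on dim genes, median centring, quantile normalization, eBayes with trend, averaging or separate testing of probe sets, fitting the compared groups alone, replicate blocks, stricter and looser thresholds, and leaving out each array.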

Additional observations from a re-analysis of the deposited data

How the results depend on the processing

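The count of members called stayed within 1.5 times under median centring, quantile normalization, eBayes with trend and robust fitting, and, over 118 probe sets, all probe sets. Single calls were lost even so: SMARCE1 in U937 under median centring, RCOR1 with all probe sets, and CHD7 between scrambled controls with trend and robust fitting. CHD4 was lower in both lines under every alternative run, by −2.29 to −1.84. Leaving out 1 array at a time gave 1 to 3 members called in U937 (3 with all arrays), 0 to 2 in MV4-11 (1 with all arrays) and 1 to 5 between scrambled controls (4 with all arrays). Without U937 CHD4 shRNA replicate 3 the U937 count was 1, and the MV4-11 count was 0 without MV4-11 CHD4 shRNA replicate 2 and 2 without replicate 3.

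The replicate block within each line gave 8 in U937, adding BAZ2B, CHD7, DNMT3B, SMARCA4 and SMARCC2. In U937, replicates 2 and 3 went with their numbers and replicate 1 did not. The same block gave 4 in MV4-11, adding DNMT3B, RCOR1 and SMARCA4. The block within MV4-11 only gave 4 in U937, adding CHD7, and 1 in MV4-11. In U937 fitted alone, CHD7 came in and RCOR1 dropped out. HDAC5 came in between scrambled controls when they were fitted alone. Over all genes, 761 calls in U937 became 1474 and 1168 under these blocks, and 1127 in MV4-11 became 2351 and 1903. MV4-11 gave 0 members when probe sets were averaged and 0 when the compared groups were fitted alone, where all-gene calls were 513. An adjusted p under 0.01 left 1 in U937, 0 in MV4-11 and 1 between scrambled controls, and one under 0.1 gave 2 in MV4-11. Leaving out the dimmest 25% of genes removed CHD7 and HDAC4 and left 2 between scrambled controls. All-gene calls ranged down to 306 in U937 (without U937 CHD4 shRNA replicate 2), and from 422 (without MV4-11 CHD4 shRNA replicate 1) to 1964 (without replicate 3) in MV4-11, when 1 array was left out.

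For the difference between the lines, no member was called under any alternative run, and over all genes limma called 4 without MV4-11 CHD4 shRNA replicate 2 and 1 without replicate 3. Dim probe sets give compressed folds, and no detection call was used.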
